A study of Mus musculus with 32 samples.

Results

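Secreted inhibitors of Wnt signalling were followed through 32 mouse tumours grown from KPC36 cells. The group was defined by gene symbol and held 9 of the 55103 genes in the deposited table, namely the secreted frizzled-related proteins Sfrp1, Sfrp2, Sfrp4, Sfrp5 and Frzb, the Dickkopf genes Dkk1, Dkk2 and Dkk3, and Wif1. It was chosen because Sfrp4 was lower after photons than in the photon controls, so the photon values of these genes are given as a description without a test. The rule for that choice did not use the carbon-ion libraries, and the members were tested there, although earlier results of these data were known.

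Wnt proteins are secreted lipid-modified ligands that bind Frizzled receptors and the co-receptors Lrp5 and Lrp6, and in the canonical route this stabilises beta-catenin, which acts with TCF/LEF factors on target genes. Sfrp proteins and Frzb carry a Frizzled-like cysteine-rich domain and bind Wnt ligands outside the cell, and Wif1 also binds Wnt ligands. Dkk1 and Dkk2 bind Lrp5 and Lrp6 instead, whereas Dkk3 is a divergent family member that is not a typical Wnt antagonist. In pancreatic tumours many of these genes are known as products of fibroblasts and other stromal cells, and several are silenced in carcinoma cells.

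Each of the 4 groups held 8 libraries. They were tumours irradiated with carbon ions, a form of particle radiation, untreated controls of the carbon-ion arm, tumours irradiated with photons, the usual form of radiotherapy, and untreated controls of the photon arm. KPC lines come from mouse pancreatic tumours. The labels name the KPC36 line and call its cells malignant, and they give no genotype, host strain, age or dose. Tumours were taken 4 or 7 days after treatment, but the day of each library is not among the labels. How the days fall within and between the groups is therefore not known. Nothing in the labels says how the libraries of a group relate to separate mice, so p-values measure the spread between these libraries.

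Total estimated counts per library ran from 13891863 to 71645903. In the carbon-ion arm, 4 control and 3 irradiated libraries have titles that begin with D, and the titles of all others begin with M, and the meaning of the letters is not given. Every photon control has a lower title number than every photon-irradiated library, so whatever follows these numbers cannot be told apart from the photon treatment. Levels are given as CPM, counts relative to the scaled library total. The summed level of 8 epithelial markers ran from 2569 to 5732 CPM, and that of 10 fibroblast markers from 6033 to 27968 CPM, so RNA of fibroblast marker genes was present in every tumour beside that of the labelled malignant cells. In such bulk samples, fewer cells of a type and less RNA per cell cannot be told apart.

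The promoters of 3 members whose levels moved with Sfrp4 from tumour to tumour are shown because a shared short motif would be visible there. Each runs 5′ to 3′ from 250 bases before to 50 bases after the start, on the plus strand of GRCm38.p6, from RefSeq. The table used held 6 of the 9 members. Dkk2 is at chr3:132085042-132085341, Wif1 at chr10:121033754-121034053 and Sfrp2 at chr3:83766071-83766370, and capitals mark motif matches on either strand.
Dkk2: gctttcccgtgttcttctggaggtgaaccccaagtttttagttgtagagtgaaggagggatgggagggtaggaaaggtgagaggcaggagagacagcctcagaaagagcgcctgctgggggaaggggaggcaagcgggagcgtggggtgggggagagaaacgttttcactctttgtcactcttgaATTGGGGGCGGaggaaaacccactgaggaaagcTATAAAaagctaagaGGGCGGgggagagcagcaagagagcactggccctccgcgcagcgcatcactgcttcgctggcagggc
Wif1: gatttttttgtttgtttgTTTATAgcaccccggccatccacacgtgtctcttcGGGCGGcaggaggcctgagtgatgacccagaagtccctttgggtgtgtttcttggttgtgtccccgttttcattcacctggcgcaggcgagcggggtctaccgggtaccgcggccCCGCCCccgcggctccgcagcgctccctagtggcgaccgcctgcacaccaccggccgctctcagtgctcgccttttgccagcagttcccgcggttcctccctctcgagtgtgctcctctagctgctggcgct
Sfrp2: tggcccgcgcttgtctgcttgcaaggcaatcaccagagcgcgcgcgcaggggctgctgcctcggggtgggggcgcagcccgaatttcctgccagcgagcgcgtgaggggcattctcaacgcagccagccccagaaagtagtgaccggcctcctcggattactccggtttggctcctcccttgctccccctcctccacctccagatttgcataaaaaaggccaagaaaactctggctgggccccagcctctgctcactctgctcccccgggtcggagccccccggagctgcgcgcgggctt
The motifs searched were CTTTGAT for TCF/LEF, TGANTCA for AP-1, TATAAA for a TATA box, GGGCGG for a GC box and CCAAT for a CCAAT box. Dkk2 held a TATAAA at -32 from the start, GC boxes and a CCAAT box that lies directly beside a GC box. Wif1 held GC boxes and a TATAAA on the other strand at -232. None of the 5 motifs was found in the Sfrp2 window. Among 32851 promoters of this length, 3.73% held CTTTGAT, 7.81% TGANTCA, 13.6% TATAAA, 35.7% GGGCGG and 37.4% CCAAT. Neither CTTTGAT nor TGANTCA occurred in any of the 6 members matched. GC content was 66.0% in the Sfrp2 window, 63.0% in that of Wif1 and 57.7% in that of Dkk2, against a median of 52.7% over all promoters. No motif of the search was thus common to all 3 windows, while Dkk2 and Wif1 both held TATAAA and GGGCGG. Sfrp4 was not among the members matched, so a motif shared with Sfrp4 itself could not be looked for.

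Sfrp4, a Wnt-binding member often made by fibroblasts, lies at chr13:19623104-19632994 on the plus strand (GRCm38). It ranged from 6.33 to 71.8 CPM in the photon controls, with a median of 16.4, and from 1.11 to 13.3 CPM after photons, with a median of 4.66. All 8 irradiated tumours were below the control median, although the lower controls overlapped the higher irradiated tumours. Its mean was 24.5 ± 23.02 CPM (SD, n = 8) without irradiation and 5.33 ± 4.01 CPM (SD, n = 8) with photons. The log2 fold change was -2.20 (SE 0.61), with a 95% interval of -3.44 to -0.96, which chose the gene and is not used as a test. Across the 16 fits that each left out 1 photon library it ran from -2.53 to -1.72, with the value nearest 0 without photon control replicate 6.

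The carbon-ion arm gave a separate measurement of Sfrp4. Its controls ranged from 2.26 to 25.7 CPM with a median of 5.29, and its irradiated tumours from 1.99 to 25.3 CPM with a median of 5.36. Both groups thus covered nearly the same range, and 4 of 8 irradiated tumours were above the control median. The means were 9.78 ± 8.86 CPM (SD, n = 8) and 7.38 ± 7.62 CPM (SD, n = 8). The log2 fold change after carbon ions was -0.42 (SE 0.59), with a 95% interval of -1.62 to 0.78 and an edgeR adjusted p of 0.997. This interval leaves room for a decrease larger than 2-fold. The value was -0.31 in the M-titled libraries and -0.93 in the D-titled ones, and with 1 library left out it ran from -1.01, without carbon-ion irradiated replicate 8, to -0.040, without carbon-ion control replicate 5. Each of these tumours was the highest of its group.

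The carbon-ion effect on Sfrp4 minus the photon effect was 1.78 (SE 0.84), with a 95% interval of 0.08 to 3.48. It contains the contrast that chose the gene and is given without a test. The carbon-ion controls lay below the photon controls by a log2 difference of -1.32, with an interval of -2.53 to -0.12. This difference holds the photon controls that chose the gene, so it too is given without a test. With 1 control library left out it ran from -1.70, without carbon-ion control replicate 5, to -0.84, without photon control replicate 6. Means of all groups other than the photon controls were thus between 5.33 and 9.78 CPM. The photon controls had the largest SD in CPM along with the highest mean, and spread on the log2 scale was not compared.

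**Figure D1:**
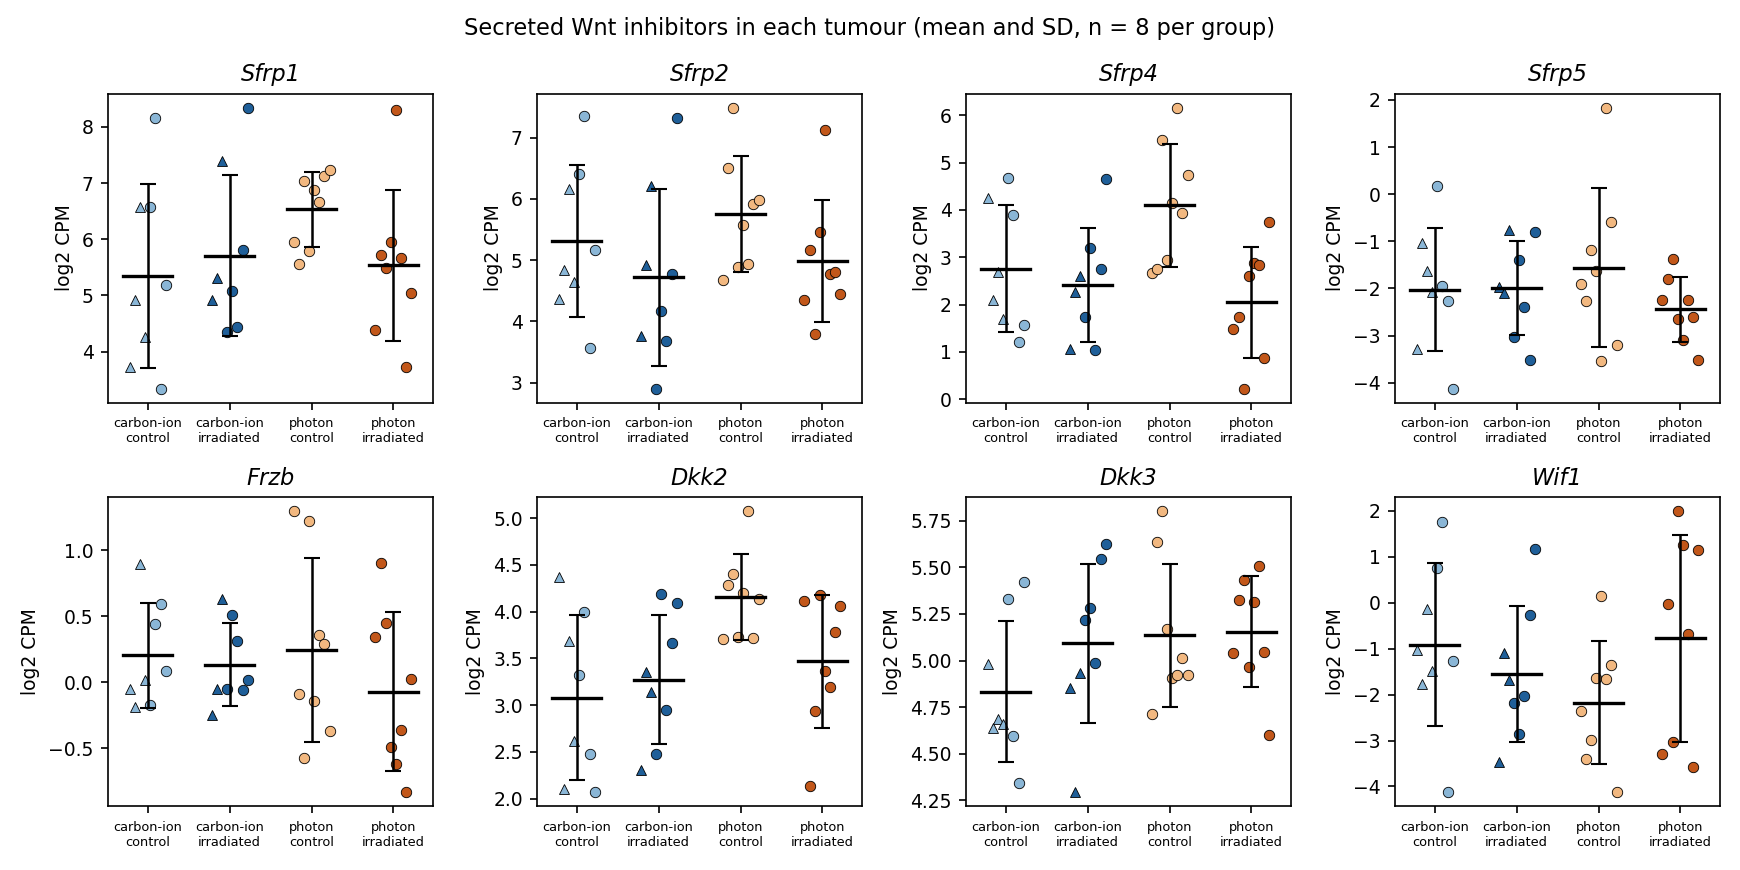
Log2 CPM of the 8 tested members in the 32 tumours, by group, with the group mean (horizontal bar) and SD (n = 8). Triangles are D-titled and circles M-titled libraries. Sfrp4 has its highest mean in the photon controls, where it ran from 6.33 to 71.8 CPM, and for every member shown the ranges of the groups overlap.

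After carbon ions none of the 8 members tested passed the threshold of an edgeR adjusted p under 0.05. No gene did among all 20474 tested, a background of 0%, while 1177 genes had an unadjusted p under 0.05 and DESeq2 called 17. Of the members, 3 had positive and 5 negative log2 fold changes, and their median was -0.19, beside 0.01 over all genes. No member had an unadjusted p under 0.05. In the photon contrast 1 member, Sfrp4, was lower past the threshold, which is how the group was chosen, so nothing is read from this count. The share of all genes past it there was 3.81% in either direction and 2.1% lower. The call of Sfrp4, which made the choice and is not used as a test, held in 7 of the 16 fits that left out a photon library. It did not hold without a filter on low counts or in M-titled libraries alone. Of the 8 members 7 had negative log2 fold changes, with a median of -0.53 beside -0.00 over all genes. All photon values come from the contrast that chose Sfrp4.

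**Figure D2:**
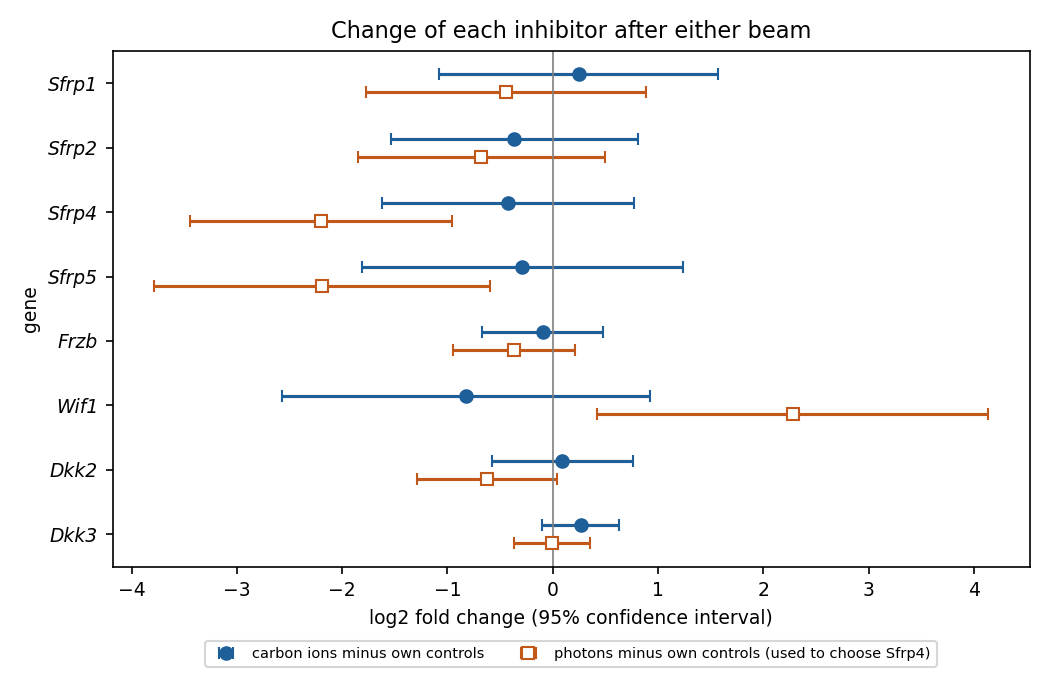
Log2 fold change of each tested member after carbon ions and after photons, with 95% intervals. In the carbon-ion arm every interval includes 0, and Dkk3 has the narrowest, from -0.10 to 0.63.

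Among the other Wnt-binding members, Sfrp1 (chr8:23411502-23449632, plus strand) and Sfrp2 (chr3:83766321-83774316, plus strand) were the more abundant. Both ranged widely within every group. In the carbon-ion arm Sfrp1 ran from 10.1 to 284 CPM in controls, with a median of 33.3, and from 20.5 to 324 CPM after irradiation, with a median of 36.6. Its log2 fold change was 0.25 (SE 0.65), with an interval of -1.08 to 1.57. The sign rested on single tumours, at -0.47 without carbon-ion irradiated replicate 8 and 1.001 without carbon-ion control replicate 6, and it was -0.24 in the M-titled libraries. In the photon arm Sfrp1 had a median of 110 CPM in controls (47.0 to 150) and of 47.8 CPM after photons (13.2 to 313). Its log2 fold change was -0.45 (SE 0.65), and -1.34 without irradiated replicate 5, the tumour at 313 CPM.

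Sfrp2 overlaps the antisense gene Gm26771, and how the counting treated strand is not given in the sources used here, so reads of the pair may be mixed. It ranged from 11.8 to 163 CPM in the carbon-ion controls, with a median of 32.3, and from 7.42 to 159 CPM after carbon ions, with a median of 22.7. The groups overlapped over nearly their whole range, and the log2 fold change was -0.37 (SE 0.58), with an interval of -1.54 to 0.81. This sign also rested on single tumours, at 0.090 without carbon-ion control replicate 6 and -1.07 without irradiated replicate 8, and it was 0.10 in the D-titled libraries. In the photon arm the medians were 54.0 CPM in controls (25.6 to 180.0) and 27.7 CPM after photons (13.8 to 139), with a log2 fold change of -0.68 (SE 0.58). It was -1.26 without irradiated replicate 5 and -0.26 without control replicate 3. As with Sfrp1, 7 of 8 irradiated tumours were below the control median.

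Frzb (chr2:80411970-80447625, minus strand) and Sfrp5 (chr19:42197971-42202252, minus strand) were low. Frzb had means of 1.13 ± 0.351 and 1.06 ± 0.255 CPM (SD, n = 8 each) in the carbon-ion controls and irradiated tumours, and of 1.26 ± 0.693 and 0.970 ± 0.447 CPM in the photon arm. Its carbon-ion log2 fold change was -0.09 with an interval of -0.67 to 0.48. Sfrp5 medians lay between 0.130 and 0.236 CPM in the 4 groups. Its photon log2 fold change of -2.19 (SE 0.78) rested on photon control replicate 6 at 3.52 CPM and was -0.71 without that tumour. After carbon ions Sfrp5 gave -0.29 with an interval of -1.82 to 1.23.

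Wif1 (chr10:121033960-121100650, plus strand), which binds Wnt ligands through its WIF domain, was the only tested member with a positive photon value. It ranged from 0 to 1.04 CPM in the photon controls, with a median of 0.199, and from 0.0265 to 3.94 CPM after photons, with a median of 0.742. The groups overlapped, and 5 of 8 irradiated tumours were above the control median, with a log2 fold change of 2.28 (SE 0.91). In the carbon-ion arm Wif1 ranged from 0 to 3.32 CPM in controls and from 0.0327 to 2.21 CPM after irradiation, a log2 fold change of -0.82 (SE 0.86), with an interval of -2.57 to 0.92. With 1 library left out, the carbon-ion value ran from -1.61, without irradiated replicate 8, to -0.13, without control replicate 6, and the photon value from 1.75 to 3.19.

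Of the inhibitors that act at Lrp5 and Lrp6, Dkk1 (chr19:30545863-30549665, minus strand) was near absent. It was above 0 in 3 of 32 libraries, all in the carbon-ion arm, with at most 2.34 estimated counts, and was not tested. It was at 0 in all 16 photon libraries, where 3 counts would correspond to levels from 0.0562 to 0.196 CPM, which is a limit for counting error only. Dkk2 (chr3:132085292-132180304, plus strand) was measured well above that level. It ranged from 4.14 to 20.7 CPM in the carbon-ion controls, with a median of 8.03, and from 4.88 to 18.1 CPM after carbon ions, with a median of 9.48. The log2 fold change was 0.09 (SE 0.33), and its interval of -0.58 to 0.76 does not reach a 2-fold change in either direction. This value pools libraries of opposite sign, at 0.47 in the M-titled and -0.46 in the D-titled ones. With 1 library left out it ran from -0.070 to 0.34.

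In the photon arm Dkk2 ranged from 13.01 to 33.7 CPM in controls, with a median of 17.95, and from 4.33 to 18.1 CPM after photons, with a median of 12.0. These groups overlapped, and the log2 fold change was -0.62 (SE 0.33). Dkk3 (chr7:112116017-112159057, minus strand), the divergent member, had the smallest standard error of the members tested. Its group means were 29.4 ± 8.16, 35.3 ± 9.75, 36.3 ± 10.6 and 36.2 ± 7.06 CPM (SD, n = 8 each) in the carbon-ion controls, carbon-ion irradiated, photon control and photon-irradiated tumours. The carbon-ion log2 fold change was 0.27 (SE 0.18), with an edgeR adjusted p of 0.995, with 7 of 8 tumours above the control median. After photons the value was -0.01.

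Per kilobase of exon, a scale on which genes can be compared, Sfrp2 and Sfrp1 were the most abundant members. Sfrp2 lay between 19.2 and 30.7 CPM per kb in the group means and Sfrp1 between 16.7 and 19.8 except for a higher mean in the photon controls. Dkk3 followed at 8.74 to 10.8 CPM per kb. Sfrp4, at 1.28 to 5.87, and Dkk2, at 2.68 to 5.04, changed places between groups, with Sfrp4 above Dkk2 in the photon controls alone. Wif1, Frzb and Sfrp5 were each below 1 CPM per kb. When the 4 group means of any member were put in order, neighbouring means differed by no more than the larger of their SDs.

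The untreated controls of both arms were compared to see whether the members started from the same level. None of the 7 members other than Sfrp4 that were tested passed the threshold, while 9.14% of all genes did. Dkk2 came nearest, with 7 of 8 carbon-ion controls below the photon control median and a log2 difference, carbon-ion minus photon controls, of -0.91 (SE 0.33) and an edgeR adjusted p of 0.0765. DESeq2 gave an adjusted p of 0.0415, and edgeR without carbon-ion control replicate 1 gave 0.0243, so the call depends on these choices. Wif1 differed by 1.76 (SE 0.91), with an adjusted p of 0.244. The differences of Sfrp1, Sfrp2, Frzb and Dkk3 were between -0.46 and -0.14, and those of Sfrp1 and Sfrp2 were 0.10 and 0.18 in M-titled libraries. Sfrp5 differed by -1.11 (SE 0.72), and by 0.37 without photon control replicate 6.

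Whether other members moved with Sfrp4 was asked within the groups, with the group means removed from log2 CPM in all 32 tumours, since this variation was not used in the choice. Of 7 members, 4 were related to it by both Pearson and Spearman coefficients at adjusted permutation p under 0.05 over 17 relations. Dkk2 had the closest relation, with r = 0.67 and rho = 0.69 and adjusted permutation p of 0.00153 and 0.00119. For Wif1 r was 0.60 and rho 0.59, with adjusted permutation p of 0.00408 and 0.00569. Sfrp1 gave an r of 0.57 and Sfrp2 of 0.54, each with an adjusted permutation p of 0.00768. Without the 2 tumours farthest from the Sfrp4 median, r was 0.62 for Dkk2, 0.57 for Wif1, 0.52 for Sfrp1 and 0.55 for Sfrp2. Tumours high in Sfrp4 for their group thus tended to be high in these 4 members as well.

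The 25 M-titled libraries gave r of 0.64 for Dkk2, 0.60 for Wif1, 0.67 for Sfrp1 and 0.61 for Sfrp2, and no relation of the 17 changed its direction or, by rho, its side of the threshold. By r the epithelial list passed there, at -0.48 with an adjusted permutation p of 0.0498. The 7 D-titled libraries, 4 and 3 in their groups, were too few for a value of their own. Dkk3 (r = 0.19), Sfrp5 (0.29) and Frzb (-0.29) had adjusted permutation p of 0.393, 0.206 and 0.203 and did not pass. For Sfrp5, r was 0.06 without the same kind of 2 tumours. All values share the library total and its scaling.

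**Figure D3:**
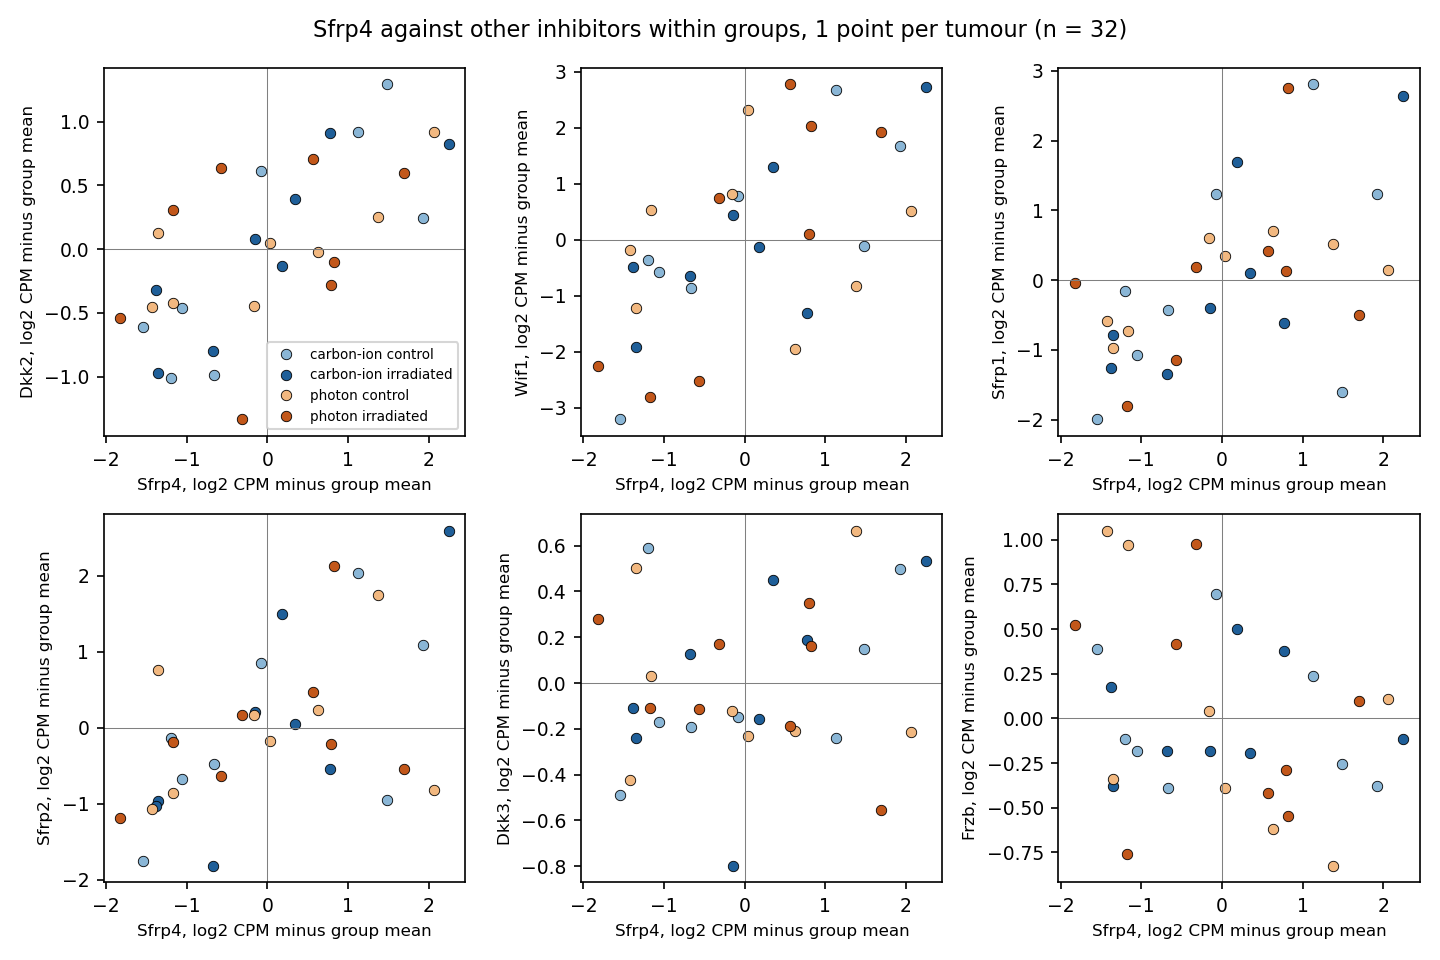
Log2 CPM minus the group mean of Sfrp4 (x axis) against that of 6 other members (y axis), 1 point per tumour (n = 32), coloured by group. Points rise together for Dkk2, where r is 0.67, and less so for Dkk3, where r is 0.19.

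Sfrp4 was also related to markers of stromal cells. The mean log2 CPM of 8 adventitial-type fibroblast markers gave r = 0.56 and that of 10 fibroblast markers r = 0.53, with adjusted permutation p of 0.00768 and 0.00882. The adipocyte and endothelial lists gave r of 0.53 and 0.48, with adjusted permutation p of 0.00882 and 0.0142. The macrophage list passed by r alone, at 0.43 with adjusted permutation p of 0.0328, while its rho of 0.38 had 0.078. The epithelial list went the other way at r = -0.39, with an adjusted permutation p of 0.062. No relation with muscle, keratinocyte, smooth muscle or mesothelial markers passed.

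**Figure D4:**
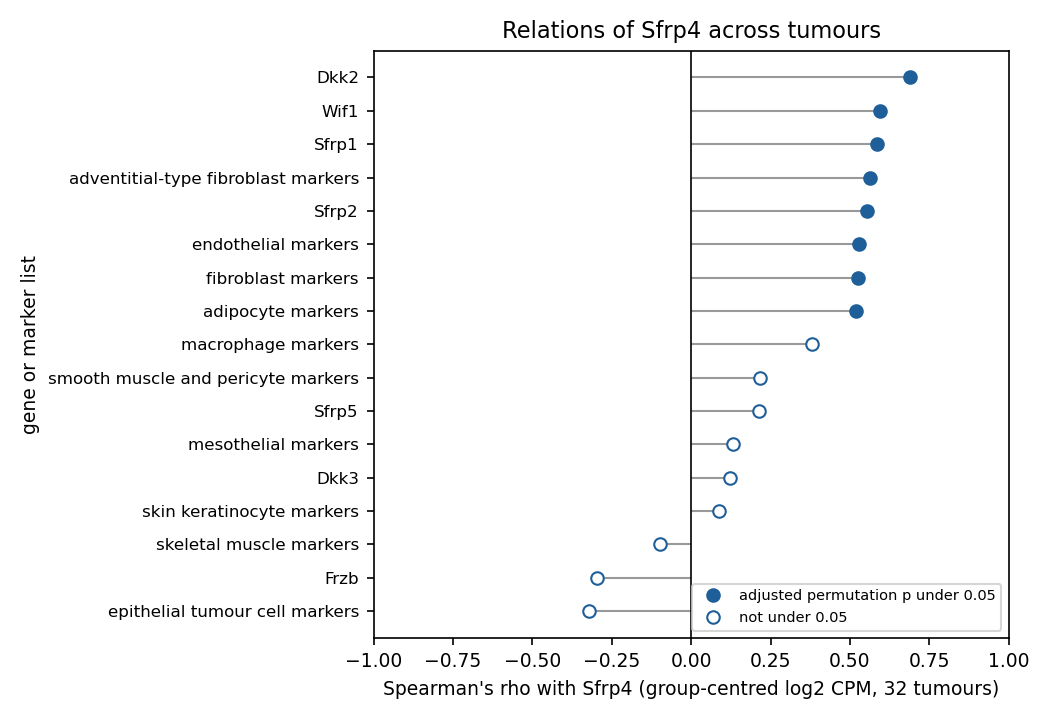
Spearman rho of Sfrp4 with the other tested members and with marker lists over the 32 tumours, with group means removed. Filled points have an adjusted permutation p under 0.05. Dkk2 is at the top at 0.69 and the epithelial list is at -0.32.

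The members differed among themselves in how they tracked these markers, in a set of 70 relations computed after the first results were seen. Sfrp2 followed fibroblast markers with r = 0.87 and rho = 0.83, and Sfrp1 the adventitial-type list with r = 0.83 and rho = 0.86. Sfrp1 and Sfrp2 followed each other with r = 0.85, an adjusted permutation p of 0.00021 over 21 pairs, from the smallest p that the permutations can give. Dkk3 was related to fibroblast markers at r = 0.63, although it was not to Sfrp4. Dkk2, the closest to Sfrp4, passed with none of the 10 marker lists. Its r with the fibroblast list was 0.25. A test of the difference between these coefficients was not made.

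Some marker genes of other cell types also passed in the photon contrast, where 3.81% of all genes passed and 2.1% were lower. The sum of fibroblast markers had a median of 16709 CPM in the photon controls (13114 to 27968) and 12183 CPM after photons (9830 to 18060), and 9 of its 10 genes had negative log2 fold changes, of which 1 passed. The smooth muscle and pericyte sum, whose list was not related to Sfrp4 past the threshold (r = 0.18), had medians of 384 CPM (292 to 524) and 199 CPM (163 to 321), with 7 of 8 genes negative and 1 past the threshold. The endothelial sum had medians of 307 CPM (283 to 557) and 228 CPM (207 to 469), with 7 of 8 genes negative and 2 lower past it. These 3 stromal lists thus had lower median sums after photons, with overlapping ranges. The macrophage sum had medians of 637 CPM (444 to 863) and 423 CPM (315 to 560), with 8 of 8 negative and 2 past it. The adventitial-type sum had medians of 268 CPM (222 to 704) and 264 CPM (188 to 331), and its 8 genes had a median log2 fold change of -0.75, with 2 lower and 1 higher past the threshold. The epithelial sum had medians of 3621 and 3677 CPM, with none of 8 genes past it, and of 3 mesothelial markers tested 1 was higher and 1 lower. The skeletal muscle sum had medians of 798 CPM in controls (4.41 to 1643) and 9.76 CPM after photons (1.42 to 420). All 10 of its genes were negative, with a median log2 fold change of -3.12. All 10 had an unadjusted edgeR p under 0.05, and none was past the threshold. None of these markers was at 0 in every library. In the carbon-ion arm the fibroblast sum had medians of 10994 and 10560 CPM. The adipocyte sum had medians of 25.8 CPM in photon controls and 20.2 CPM after photons. Of its 7 tested genes 6 were negative there, with a median log2 fold change of -1.43, and none passed. After carbon ions all 7 were negative, with a median of -2.88, 4 had an unadjusted edgeR p under 0.05 and none passed. The adipocyte sum in that arm had medians of 33.2 CPM in controls and 28.96 CPM after irradiation, with maxima of 409 and 46.7 CPM. The part of these cell types in the lower Sfrp4 level was not tested.

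The 5 genes most like Sfrp4, by the highest rho of group-centred log2 CPM over the 32 tumours among 11530 genes, were Gja1, Sdc2, Medag, Il6st and Trabd2b. Their rho was 0.85, 0.84, 0.84, 0.83 and 0.83. Gja1 encodes the gap junction protein connexin 43, Sdc2 the heparan sulphate proteoglycan syndecan-2, and Il6st the shared receptor subunit of the interleukin-6 family. Trabd2b encodes a membrane metalloprotease of the Tiki family, which is known to act on Wnt proteins. In the M-titled libraries 2 of the 5 were again among the first 5. These are descriptions of the ranking without a test.

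Other genes of the Wnt pathway, 82 in 7 lists by role, of which 65 were tested, were read from the same fits. After carbon ions 0 of 65 passed and 4 had an unadjusted p under 0.05. After photons 3 of 65 passed, 4.62% beside the 3.81% of all genes. Of these, 2 were higher, where 1.71% of all genes were, and 1 was lower. A direct test of the difference between both effects called 0 of 65, beside 0.0781% of all genes.

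Porcn, the acyltransferase that modifies Wnt ligands for secretion, was higher after photons than in the photon controls. It ranged from 67.1 to 118 CPM in the photon controls, with a median of 86.7, and from 113 to 170 CPM after photons, with a median of 136. All 8 irradiated tumours were above the control median, with a small overlap of the ranges. The log2 fold change was 0.58 (SE 0.12) and an edgeR adjusted p of 0.00849, and it passed in 16 of 16 fits that left out a photon library. After carbon ions Porcn gave -0.13 (SE 0.12), and the difference of the effects had an edgeR adjusted p of 0.0739. The untreated carbon-ion controls, however, had a mean of 136 ± 16.3 CPM, beside 134 ± 19.7 CPM after photons (SD, n = 8 each). The mean of Porcn was lowest in the photon controls, at 89.9 ± 18.8 CPM (SD, n = 8).

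Both other genes that passed were Frizzled receptors. Fzd3 rose from 7.97 ± 1.37 to 16.04 ± 4.39 CPM (SD, n = 8 each) in the photon arm, with a log2 fold change of 1.01 (SE 0.26) and an edgeR adjusted p of 0.026, and passed in 12 of 16 such fits. All photon-irradiated tumours were above the highest photon control. The carbon-ion controls, however, ran from 4.74 to 18.6 CPM, with a mean of 11.5 ± 5.26 CPM, and the mean after carbon ions was 9.51 ± 4.45 CPM (SD, n = 8 each). Fzd4 fell from 47.3 ± 7.47 to 34.3 ± 5.45 CPM (SD, n = 8 each), with a log2 fold change of -0.46 (SE 0.12) and an edgeR adjusted p of 0.0325. It passed in 8 of 16 fits, and not without a filter on low counts. In the carbon-ion arm Fzd4 was at 38.0 ± 7.87 CPM in controls and 34.8 ± 6.91 CPM after irradiation (SD, n = 8 each), so its mean was highest in the photon controls.

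**Figure D5:**
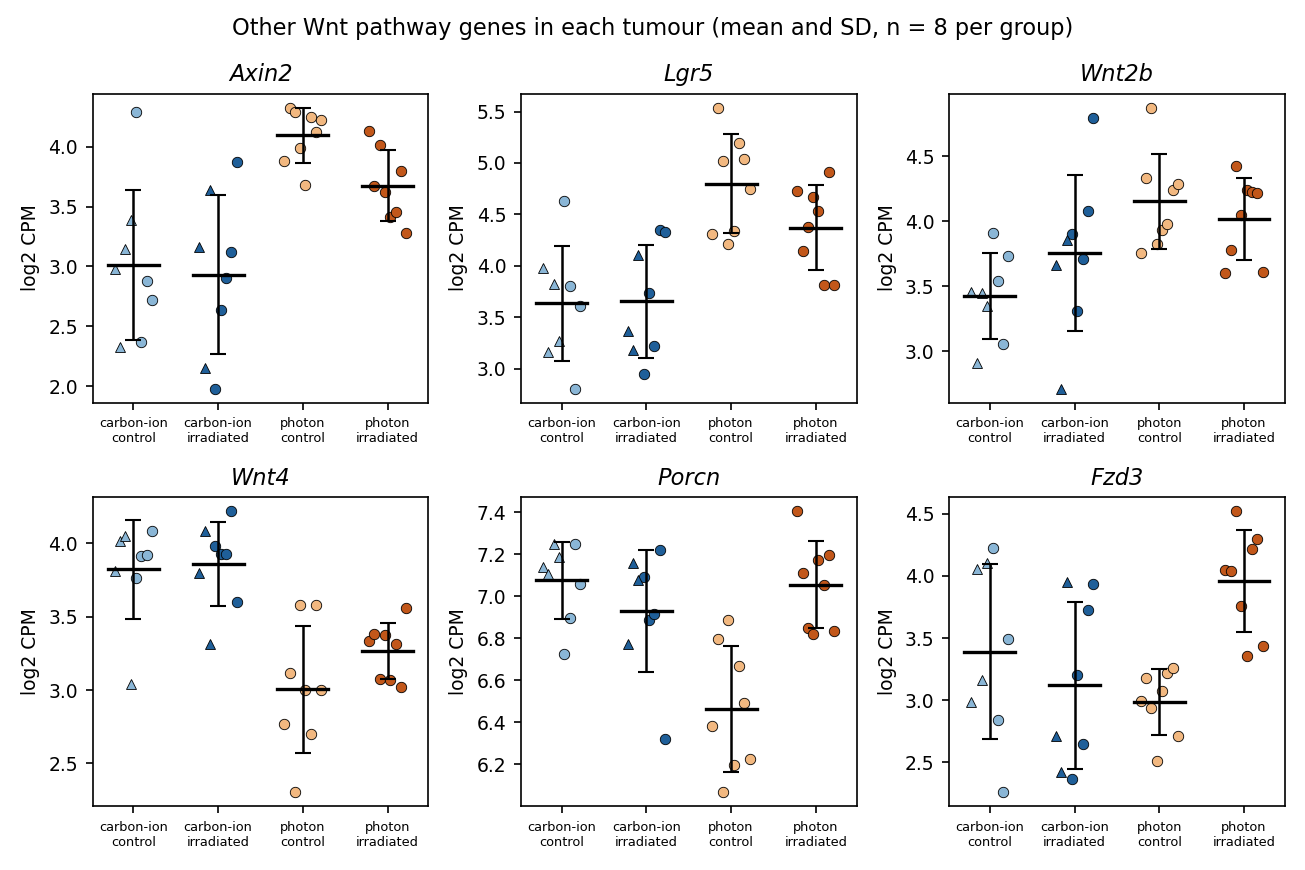
Log2 CPM of 6 Wnt pathway genes outside the inhibitor group in the 32 tumours, by treatment group, with the group mean (horizontal bar) and SD (n = 8). Triangles are D-titled and circles M-titled libraries. Porcn is lowest in the photon controls, where Axin2 and Lgr5 are highest.

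Target and feedback genes report on canonical signalling downstream of the inhibitors. None of the 10 tested passed after either treatment, with 1 positive and 9 negative values and a median of -0.21 after photons. Axin2, a feedback inhibitor that Wnt signalling induces, had 17.2 ± 2.58 CPM without and 12.9 ± 2.72 CPM with photons (SD, n = 8 each), a log2 fold change of -0.41 with an edgeR adjusted p of 0.321. After carbon ions it gave -0.09. Nkd1, another feedback gene, had a carbon-ion log2 fold change of -0.52 (SE 0.16) and an edgeR adjusted p of 0.478, and 7 of 8 tumours below the control median. It was lower in the photon arm too, at 4.13 ± 0.823 CPM in controls and 3.24 ± 0.570 CPM after photons (SD, n = 8 each). There the irradiated tumours ran from 2.22 to 4.07 CPM, below the control median of 4.24. Beta-catenin itself, Ctnnb1, gave 0.01 after carbon ions and -0.04 after photons. The ligand Wnt5a gave 0.13 and 0.20, and Notum and Rspo3 were below 0.5 CPM in all group means.

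More pathway genes passed between the controls of both arms than after either treatment. In that comparison 9 of 65 genes passed, 13.8% beside 9.14% of all genes, of which 3 were higher and 6 lower on the carbon-ion side, beside 5.13% and 4.01% of all genes. Lgr5, an R-spondin receptor and Wnt target, was at 13.2 ± 5.48 CPM in the carbon-ion and 29.2 ± 9.74 CPM in the photon controls (SD, n = 8 each), a log2 difference of -1.14 (SE 0.24) and an edgeR adjusted p of 0.0035. Axin2 differed by -0.97 (SE 0.24) and an edgeR adjusted p of 0.0107. The ligand Wnt4 was higher in the carbon-ion controls by 0.80 and Porcn by 0.60, with edgeR adjusted p of 0.00191 and 0.00232. Wnt2b differed by -0.74 and Fzd5 by 0.30, and the other three were Draxin, Sox9 and Ryk, which were named after their values were seen. In the M-titled libraries alone Wnt4 was the sole pathway gene to pass. There Lgr5 and Axin2 differed by -1.002 and -0.83, with edgeR adjusted p of 0.0688 and 0.107.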

How the data were processed

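RNA from tumour tissue was sequenced from stranded mRNA libraries, per the labels' protocols. The deposited table held estimated counts per gene from the authors, and the submitters' processing notes name FastQC 0.12.0, Trimmomatic 0.32, RSEM 1.3.3 and the build mm10. How strand was handled and which annotation served are not given in the sources used here. The tests had been planned for whole-number counts, so values were rounded, which changed library totals by at most 0.00403%.

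Testing used edgeR 4.0.16 under R 4.3.3. The filter filterByExpr, at a minimum count of 10, left 20474 genes, and TMM set the scaling. The 32 libraries entered a single quasi-likelihood model of the 4 groups, with Benjamini-Hochberg adjustment over all tested genes and a threshold of 0.05. CPM refer to TMM-scaled totals, and log2 CPM used a prior count of 2. Intervals are 95% intervals. Scripts were tested on simulated data. Relations used two-sided within-group permutation tests with 100000 resamples. Coordinates are those of GENCODE annotation for GRCm38.

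All 9 members are named. Of the pathway lists the text names up to 6 genes that passed per comparison, and always Axin2, Nkd1, Lgr5, Notum, Rspo3, Wnt5a and Ctnnb1. The genes most like Sfrp4 are the 5 with the highest rho among genes with a mean log2 CPM of at least 2. Members and lists were chosen with earlier results of these data known. Alternatives were DESeq2 1.42.0, other scalings, no filter, subsets by title letter and leaving out libraries.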

Additional observations from a re-analysis of the deposited data

Results flagged for a closer look

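Of 84 sets of 8 tumours examined for a single value far from the rest, 16 had one. The rule flags about 1 in 20 sets when values are normally distributed and the sets independent. These sets were CPM of related genes in the same tumours, so the 16 cannot be set against that rate. Among the members, Sfrp1 reached 284 CPM in carbon-ion control replicate 6 and 313 CPM in photon-irradiated replicate 5. Sfrp2 reached 159 CPM in carbon-ion irradiated replicate 8, 180.0 CPM in photon control replicate 3 and 139 CPM in photon-irradiated replicate 5. Sfrp4 was at 25.3 CPM in carbon-ion irradiated replicate 8, where the others of its group lay between 1.99 and 9.05 CPM. In that same tumour Wif1 was at 2.21 CPM, and Wif1 was at 1.04 CPM in photon control replicate 5. Sfrp5 was at 1.08 CPM in carbon-ion control replicate 5 and at 3.52 CPM in photon control replicate 6, where Dkk2 stood at 33.7 CPM. Photon-irradiated replicate 5 thus stood apart for Sfrp1 and Sfrp2, and carbon-ion irradiated replicate 8 for Sfrp2, Sfrp4 and Wif1.

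Among the pathway genes, Axin2 was at 19.5 CPM in carbon-ion control replicate 5 and Rspo3 at 1.73 CPM in carbon-ion control replicate 6. Wnt4 was low at 8.16 CPM in carbon-ion control replicate 4. Fzd4 was at 47.0 CPM in photon-irradiated replicate 5, and Wnt2b at 29.3 CPM in photon control replicate 3.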

How the results depend on the processing

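No paired analysis was possible because the labels give no replicate numbers and those used here are names only. The number of genes past the threshold moved most. After carbon ions it was 0, but 17 with DESeq2, 2 in the D-titled libraries (an alternative chosen after seeing the data) and 0 to 5 with a library left out. After photons it was 781, but 431 without a filter, 1518 with DESeq2, and 239 to 1656 with a library left out, without photon control replicates 3 and 2. Its split of 351 higher and 430 lower became 566 and 394 under upper-quartile scaling. The difference of the effects called 16 genes, but 94 under upper-quartile scaling, 4 without a filter, 270 with DESeq2, 1 in M-titled libraries and 5 to 108 with a library left out. For the controls of both arms 1871 became 973 in M-titled libraries, 1081 with the title letter as a covariate and 1178 to 2180 with a library left out.

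Pathway genes called numbered 1 under upper-quartile scaling and 3 with DESeq2 for the difference, with 0 to 1 when a library was left out. In the controls they numbered 1 in M-titled libraries, 5 with the title letter as a covariate and 4 to 12 with a library left out, and after photons 1 to 5. No carbon-ion call on a member changed. The photon call that chose Sfrp4 held in 7 of 16 fits with a library left out, which describes the choice and is not used as a test.

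Some values turned sign, among them Sfrp5 in the controls. In the carbon-ion effect Lgr5 became -0.0066 under upper-quartile scaling, -0.013 in M-titled libraries and -0.016 with the letter covariate, and Sfrp1 -0.24 in M-titled libraries. In D-titled libraries Sfrp2 became 0.10, Sfrp5 0.46, Dkk2 -0.46, Dkk3 -0.020 and Axin2 0.11. In the controls, M-titled libraries gave 0.10 for Sfrp1 and 0.18 for Sfrp2. With a library left out, carbon-ion values ran from -0.47 to 1.001 for Sfrp1, -1.07 to 0.090 for Sfrp2, -0.60 to 0.44 for Sfrp5, -0.18 to 0.034 for Frzb, -0.070 to 0.34 for Dkk2, -0.25 to 0.19 for Axin2 and -0.11 to 0.20 for Lgr5. In the controls they ran from -0.27 to 0.075 for Frzb, -0.71 to 0.16 for Sfrp2 and -1.83 to 0.37 for Sfrp5. The cause was not tested. Sfrp5, Wif1, Frzb and Dkk1 are limited by low counts.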
